A study of Mus musculus with 6 samples.

Results

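A set of 10 genes of the hormone-sensing luminal epithelium and of its paracrine signals was followed in mammary cells of mice with a diminished insulin receptor. They are Esr1, Pgr, Foxa1, Cited1, Tbx3, Tnfsf11, Tnfrsf11a, Calca, Ly6a and Prom1. They were chosen by exact gene symbol out of 20805 genes named on the array, each had 1 of the 28853 probe sets, and 9 of the 10 were bright enough to be tested. The samples were mammary cells released by collagenase on day 13.5 of pregnancy, 1 Affymetrix MoGene 1.0 ST array for each mouse. The 3 IRfl/fl Cre+ mice (numbers 5, 6 and 7) carried a floxed insulin receptor gene and Cre recombinase under the BLG promoter, that of the milk protein beta-lactoglobulin. The 3 IRfl/fl Cre- mice (numbers 1, 2 and 4) carried the same floxed gene without Cre, and females of both strains had been bred with CD1 males. Age is not given in the sources used here. A milk protein promoter drives Cre in secretory epithelium, so the cells that keep the receptor in Cre+ glands are part of each Cre+ sample.

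The mammary ductal and alveolar tree holds luminal cells, some of which carry the receptors for oestrogen and progesterone, and a basal layer of myoepithelial cells. The receptor-bearing cells are known as hormone-sensing cells. They answer progesterone by releasing RANK ligand (Tnfsf11), which binds its receptor RANK (Tnfrsf11a) on neighbouring cells that lack the hormone receptors. In mouse pregnancy this relay drives growth of the alveoli.

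Sequences upstream of the gene start, from RefSeq (GRCm38.p6), are shown for 4 members. Tnfrsf11a and Tnfsf11 are the receptor and ligand of the relay. In the test given below Tnfrsf11a was called lower in Cre+, and Tnfsf11 did not pass. Calca and Foxa1 hold matches to the motifs searched. Each run is the 250 bases before the start, read 5′ to 3′ on the gene's strand, and capitals mark motif matches. The windows lie at chr1:105780473-105780722 (plus strand) for Tnfrsf11a, chr14:78308044-78308293 (minus strand) for Tnfsf11, chr7:114636358-114636607 (minus strand) for Calca and chr12:57546112-57546361 (minus strand) for Foxa1.
Tnfrsf11a: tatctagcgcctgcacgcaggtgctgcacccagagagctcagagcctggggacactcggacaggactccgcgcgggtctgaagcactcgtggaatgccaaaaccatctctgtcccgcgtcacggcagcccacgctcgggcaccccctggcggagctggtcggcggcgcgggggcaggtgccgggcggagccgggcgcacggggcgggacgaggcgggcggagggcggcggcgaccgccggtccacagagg
Tnfsf11: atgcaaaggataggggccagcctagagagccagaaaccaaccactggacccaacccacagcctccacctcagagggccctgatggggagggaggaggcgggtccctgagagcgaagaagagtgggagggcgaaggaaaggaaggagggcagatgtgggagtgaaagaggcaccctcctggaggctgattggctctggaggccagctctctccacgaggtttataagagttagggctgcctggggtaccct
Calca: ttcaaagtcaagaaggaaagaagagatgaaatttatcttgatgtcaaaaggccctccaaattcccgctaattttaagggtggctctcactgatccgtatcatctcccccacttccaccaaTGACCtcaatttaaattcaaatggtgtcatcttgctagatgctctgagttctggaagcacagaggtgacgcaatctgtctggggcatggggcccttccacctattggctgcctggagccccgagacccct
Foxa1: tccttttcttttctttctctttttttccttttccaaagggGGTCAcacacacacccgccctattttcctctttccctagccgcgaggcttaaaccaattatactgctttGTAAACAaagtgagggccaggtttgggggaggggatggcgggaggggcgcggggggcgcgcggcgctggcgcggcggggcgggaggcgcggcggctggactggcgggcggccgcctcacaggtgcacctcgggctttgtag

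The table held 12 such windows for 8 of the 10 members, with Tbx3 and Ly6a unmatched. The full oestrogen response element GGTCANNNTGACC was in 0 of the 12 windows and in 0.0639% of all 32851 windows of the same length. The full progesterone response element GNACANNNTGTNC was in 0 of the 12 and in 0.387% of all. A single arm of the oestrogen element, TGACC, read on both strands, was in 4 of the 12 windows (1 of Calca, 1 of Foxa1 and 2 of Cited1), against 35.2% of all windows. A single arm is part of the full element, and the match shown for Calca lies 130 to 126 bases before its start. A single arm of the progesterone element, TGTTCT, was in 1 window, of Prom1, and in 16.1% of all, and the Fox factor core TGTTTAC was in 1, the Foxa1 window shown, and in 3.17% of all. These matches describe letters in a window and not bound sites.

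RNA was hybridised to arrays, and each value is a linear intensity made by robust multi-array averaging (RMA), which puts arrays on a common scale. Array medians lay between 28.4 and 29.3 units. The targeted gene Insr was lower in Cre+ cells at both of its probe sets, by 0.95 (SE 0.15) and 0.52 (SE 0.091) on the log2 scale, with adjusted p = 0.0231 and 0.0285 in limma, although whether those probes lie inside the deleted stretch is not given in the sources used here. Each of these calls held in 2 of the 6 fits that left out a single array. Luminal structure markers ranged widely in level. Krt8, a luminal keratin, lay between 808 and 1060 units in Cre+ and between 942 and 1508 in Cre-. Krt7, another keratin of that list, lay between 44.7 and 56.0 units in Cre+ and between 49.4 and 50.6 in Cre-. Both keratins are named after their values were seen. The arrays also carried markers of other cells. The summed intensity of 10 basal markers was 4995 to 5291 units in Cre+ and 2730 to 4067 in Cre-, with 4 of 10 past the test, all higher, but 0 to 2 when any single array was left out. Acta2, named after its values were seen, made the largest part of that sum, at 2670 to 3054 units in Cre+ and 1557 to 2193 in Cre-. The sum of 10 T and B cell markers was 290 to 963 units in Cre+ and 394 to 1604 in Cre-, highest on Cre+ 7 and Cre- 1. Of these, 0 of 10 were past the test in limma or at an unadjusted p under 0.05. Values are therefore those of mixed cells, and in such samples fewer cells of a type and less RNA per cell cannot be told apart.

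The comparison of genotypes asked whether hormone-sensing genes and their signals differed when the insulin receptor was diminished. Tnfrsf11a, the RANK receptor, fell in Cre+ cells. No member rose past the test, although 8 of the 9 tested members had a change above 0, a sign shared by 51.6% of all 16921 tested probe sets. In limma, with adjusted p under 0.05 over all tested probe sets, 1 of 9 members was called lower and 0 were called higher, where 2.14% of all tested probe sets were called lower and 2.03% higher. At an unadjusted p under 0.05, 4 members were higher, against 10.2% of all tested probe sets. The median change of the 9 was 0.23 on the log2 scale, and that of all tested probe sets 0.0037. The Cre+ and Cre- arrays did not overlap for 4 members that were higher, where 12.9% of all probe sets did the same, and for 1 that was lower, where 12.7% did.

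**Figure D1:**
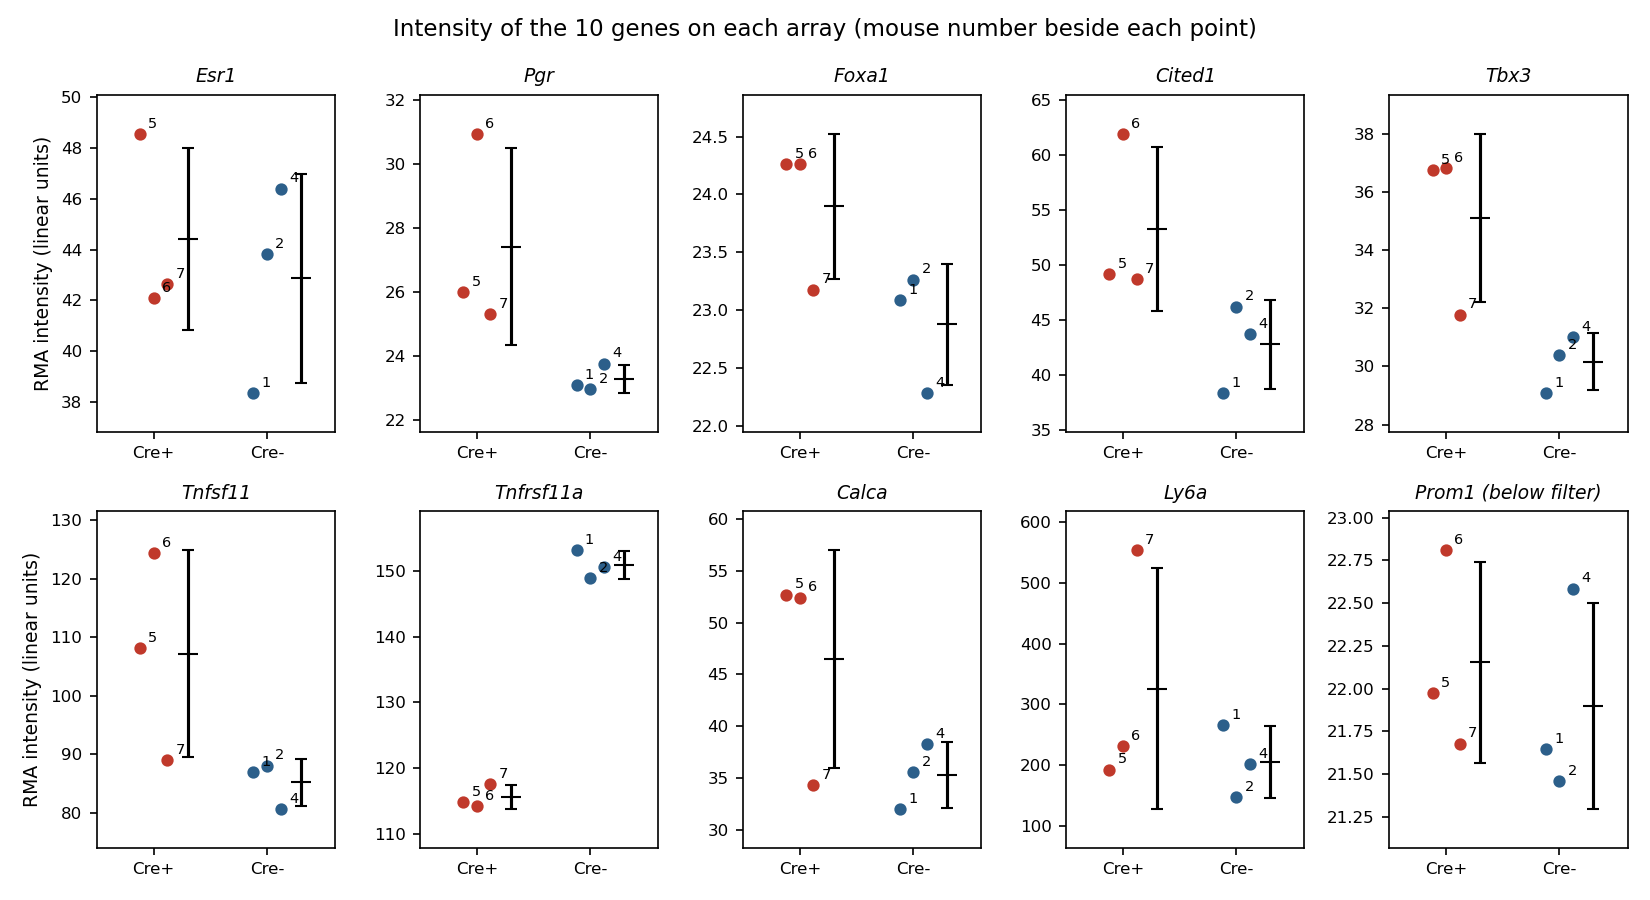
RMA intensity in linear units of each of the 10 genes on each array, Cre+ on the left and Cre- on the right, with the mouse number beside each point and the mean ± SD (n = 3) as a black bar; each panel has its own axis, which does not start at 0. The Tnfrsf11a points of the 3 Cre+ mice sit between 114 and 118 units, all below the Cre- points at 149 to 153, while Cre+ 7 stands high for Ly6a and near the Cre- points for Calca.

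Among the hormone receptors, Esr1 encodes oestrogen receptor alpha, the transcription factor that defines hormone-sensing cells. Its intensity was 48.5, 42.1 and 42.6 units in Cre+ 5, 6 and 7, against 38.4, 43.8 and 46.4 units in Cre- 1, 2 and 4. The groups overlapped almost fully, with a log2 change of 0.053 (SE 0.10, 95% interval -0.18 to 0.29, limma adjusted p = 0.835). With 16 units taken off every value before log2, the change was 0.086 (SE 0.16). On the deposited scale, a change larger than 0.29 in size lies outside the 95% interval. The sign itself turned without Cre- 1 (-0.025) or without Cre+ 5 (-0.013), and the change was 0.11 without Cre- 4.

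Pgr encodes the progesterone receptor, which is itself induced by oestrogen and starts the RANK relay. It was dim on every array, with 26.0, 30.9 and 25.3 units in Cre+ 5, 6 and 7, against 23.1, 23.0 and 23.8 units in Cre- 1, 2 and 4. All Cre+ arrays lay above all Cre- arrays, and the spread was wider in Cre+, with a mean of 27.4 ± 3.08 units against 23.3 ± 0.427 (SD, n = 3 each). The log2 change was 0.23 (SE 0.072, 95% interval 0.063 to 0.40), 1.17-fold, and did not pass (limma adjusted p = 0.125, exact permutation p = 0.1, two-sided, the smallest that 3 against 3 arrays allow). Deposited values never went below 18.7 units, and the filter on dim probe sets lay at 22.4, so a fold change of so dim a gene may be understated. Without Cre+ 6, the highest array, the change was 0.14 (limma adjusted p = 0.114). With 16 units taken off every value the change was 0.62 (limma adjusted p = 0.0951).

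The transcription factors of these cells gave a like range of small changes. Foxa1 encodes the pioneer factor that opens chromatin for oestrogen receptor, and it lay just above the filter, at 24.3, 24.3 and 23.2 units in Cre+ 5, 6 and 7, against 23.1, 23.3 and 22.3 units in Cre- 1, 2 and 4. The groups overlapped, with a log2 change of 0.063 (SE 0.032, limma adjusted p = 0.325). Cited1, a coactivator of oestrogen receptor that marks hormone-sensing cells in the mouse, had 49.2, 61.9 and 48.7 units in Cre+ 5, 6 and 7, against 38.4, 46.2 and 43.8 units in Cre- 1, 2 and 4. The Cre+ arrays all lay higher and Cre+ 6 highest, with a log2 change of 0.31 (SE 0.12, 95% interval 0.029 to 0.59, limma adjusted p = 0.204). Without Cre+ 6 it was 0.20 (adjusted p = 0.404).

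Tbx3, a T-box factor needed for the mammary placode and kept in hormone-sensing cells, had 36.8, 36.8 and 31.8 units in Cre+ 5, 6 and 7, against 29.1, 30.4 and 31.0 units in Cre- 1, 2 and 4. Cre+ 5 and 6 stood apart from the other arrays, and Cre+ 7 was barely above Cre- 4. The log2 change was 0.22 (SE 0.072, 95% interval 0.048 to 0.38, limma adjusted p = 0.146). In the authors' deposited table its ratio was 1.16 with an unadjusted p of 0.0483, below 0.05 as for no other member but Tnfrsf11a.

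Among the secreted signals, Tnfsf11 encodes RANK ligand. Its intensity was 108, 124 and 89.0 units in Cre+ 5, 6 and 7, against 86.9, 88.0 and 80.6 units in Cre- 1, 2 and 4. Cre+ 5 and 6 were high and Cre+ 7 lay within 1 unit of Cre- 2, so the groups were separate by a narrow gap. The log2 change was 0.32 (SE 0.13, 95% interval 0.025 to 0.61), 1.25-fold, and did not pass (limma adjusted p = 0.211). Without Cre+ 6 it was 0.21 (adjusted p = 0.428).

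Calca encodes calcitonin and, by alternative splicing, the calcitonin gene-related peptide, and calcitonin is made by mammary epithelium in pregnancy. One probe set covers the gene and cannot separate the products here. It had 52.7, 52.4 and 34.3 units in Cre+ 5, 6 and 7, against 32.0, 35.6 and 38.3 units in Cre- 1, 2 and 4. Cre+ 5 and 6 were the highest arrays, while Cre+ 7 lay inside the Cre- range. The log2 change was 0.37 (SE 0.17, 95% interval -0.019 to 0.77, limma adjusted p = 0.274). Without Cre+ 7 it was 0.58 and passed (adjusted p = 0.0497), and without both Cre+ 7 and Cre- 1 it was 0.51 (adjusted p = 0.0268).

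Across the 10 members, Cre+ 7 was the lowest of the Cre+ arrays for 7, whereas it was the lowest at 40.8% of all tested probe sets. The log2 spread was larger in Cre+ than in Cre- for 8 of the 10, and for 50.8% of all tested probe sets. Cre+ 7 also had the highest T and B cell marker sum of its group (963 units, against 290 in Cre+ 5 and 475 in Cre+ 6) and the lowest sum of 10 luminal structure markers (3310 units, against 4139 and 4219). The part of these in the members' values was not tested.

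In the fit of all 6 arrays, the receptor gene of the relay was the only member past the test. Tnfrsf11a encodes RANK, which is carried by luminal progenitor and basal cells of the mouse gland and also by macrophages. It had 115, 114 and 118 units in Cre+ 5, 6 and 7, against 153, 149 and 151 units in Cre- 1, 2 and 4. The spread within each group was far smaller than the gap, with means of 116 ± 1.80 units in Cre+ and 151 ± 2.13 in Cre- (SD, n = 3 each). It fell by 0.39 (SE 0.070, 95% interval -0.55 to -0.22) on the log2 scale, 1.31-fold lower in Cre+, with limma adjusted p = 0.0310 and a ratio of 0.77 in the authors' deposited table.

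The fall in Tnfrsf11a kept its size when single arrays were left out, but not its call. Leaving out any 1 of the 6 arrays gave a change between -0.40 and -0.38, but none of these fits passed. The adjusted p was 0.0533, 0.112 and 0.0789 when Cre- 1, 2 or 4 was left out, and 0.119, 0.0947 and 0.0625 when Cre+ 5, 6 or 7 was. The summed luminal structure markers overlapped between the genotypes, while the summed alveolar markers did not. Gene by gene, all 10 luminal structure markers and 9 of 10 alveolar markers had a change below 0. Of these, 2 and 7 were lower without overlap, as were 12.7% of all tested probe sets. The summed intensity of 10 luminal structure markers (keratins 7, 8, 18 and 19 among them) was 3310 to 4219 units in Cre+ and 3830 to 6222 in Cre-, with Cre- 1 below Cre+ 5 and 6, a median log2 change of -0.38 and 1 of 10 past the test (0 to 4 when single arrays were left out). For 10 luminal alveolar markers the sums were 8932 to 10550 units in Cre+ and 14348 to 17329 in Cre-, and 7 of 10 fell, against 3 without Cre- 2 and 2 without Cre+ 5 or Cre+ 6. Csn2, named after its values were seen, made the largest part of these sums, at 5511 to 6251 units in Cre+ and 6208 to 6501 in Cre-, and did not pass. Each array was also centred on its luminal structure markers, a scaling chosen after seeing the data. It adds the same amount to every change and moved the median of all probe sets to 0.32. The change in Tnfrsf11a was then -0.065 (SE 0.22, against 0.070 as deposited, limma adjusted p = 0.801). That in Tnfsf11 was 0.64 (SE 0.22, limma adjusted p = 0.0638). The shift is the same for every gene, so it holds nothing particular to the receptor or the ligand. The same scaling ended both calls of the targeted gene Insr, at -0.63 (SE 0.22, adjusted p = 0.0786) and -0.20 (SE 0.23, adjusted p = 0.464). Of the other cells known to carry RANK, macrophage and dendritic cell markers summed to 759 to 860 units in Cre+ and 481 to 766 in Cre-, which overlap, with 2 of 10 past the test (0 to 2 when single arrays were left out), and basal markers gave the sums above. The part of these cell types in the Tnfrsf11a values was not tested.

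**Figure D2:**
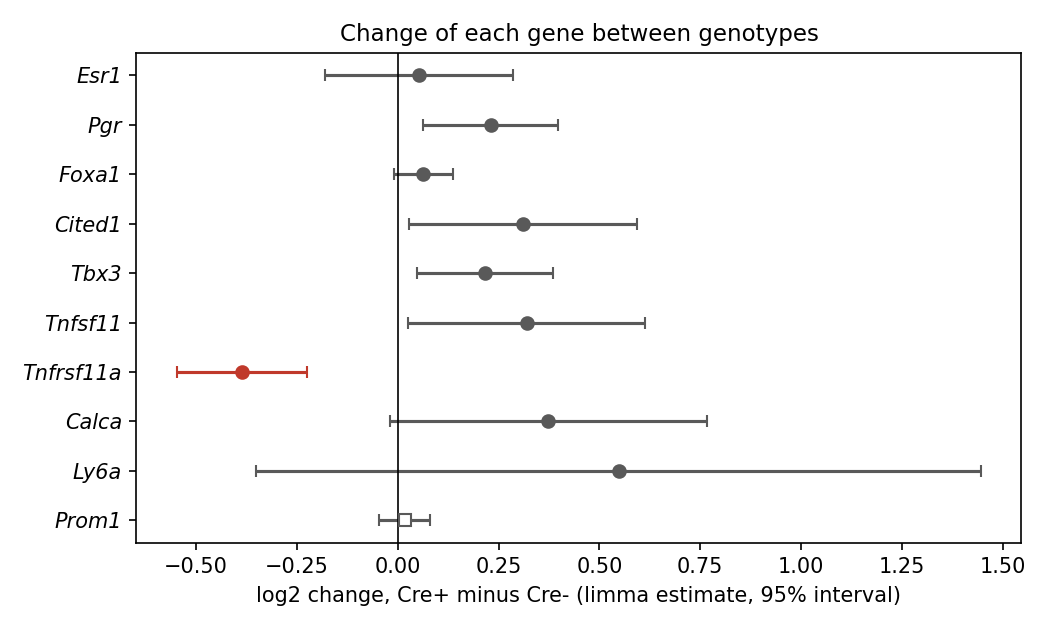
Log2 change of each gene, Cre+ minus Cre-, with the limma estimate as a point and its 95% interval as a bar; red marks adjusted p under 0.05 and the open square is Prom1, which lay below the filter. Tnfrsf11a at -0.39 is the only gene with an interval below 0, and the widest interval, -0.35 to 1.45, belongs to Ly6a.

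The surface markers used to sort hormone-sensing cells behaved unlike each other. Ly6a encodes Sca-1, a membrane protein enriched on hormone-sensing luminal cells of the mouse and also borne by lymphocytes, endothelium and fibroblasts. It had 193, 231 and 554 units in Cre+ 5, 6 and 7, against 266, 148 and 202 units in Cre- 1, 2 and 4. Cre+ 7 was far above every other array, and the remaining arrays of the genotypes overlapped. The log2 change was 0.55 (SE 0.39, 95% interval -0.35 to 1.45, limma adjusted p = 0.504), and 0.084 (adjusted p = 0.890) without Cre+ 7. It was 0.33 without Cre- 2 and 0.85 without Cre+ 5, neither past the test.

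The highest array for Ly6a in each genotype, Cre+ 7 and Cre- 1, was also the highest for T and B cell markers, at 963 and 1604 summed units, and for endothelial markers, at 921 and 887 summed units. Between those arrays the order differed, with Ly6a higher on Cre+ 7 and the lymphocyte sum higher on Cre- 1. Fibroblast markers summed to 1089, 1443 and 1398 units in Cre+ 5, 6 and 7, against 1202, 721 and 513 units in Cre- 1, 2 and 4. The part of lymphocytes, endothelium and fibroblasts in the Ly6a values was not tested. Without both arrays the Ly6a change was 0.29 (adjusted p = 0.347).

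Prom1 encodes prominin 1 (CD133), which marks oestrogen receptor-bearing luminal cells in the mouse gland. Its probe set was below the filter, at 22.0, 22.8 and 21.7 units in Cre+ 5, 6 and 7, against 21.6, 21.5 and 22.6 units in Cre- 1, 2 and 4. The groups overlapped within about 1 unit, and a fit without the filter gave a log2 change of 0.017 (SE 0.028, limma adjusted p = 0.842). A further probe set shared by Prom1 and Gm16401 was left out because it names more than 1 gene, and it read 23.8 to 24.6 units in Cre+ and 24.2 to 24.5 in Cre-.

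**Figure D3:**
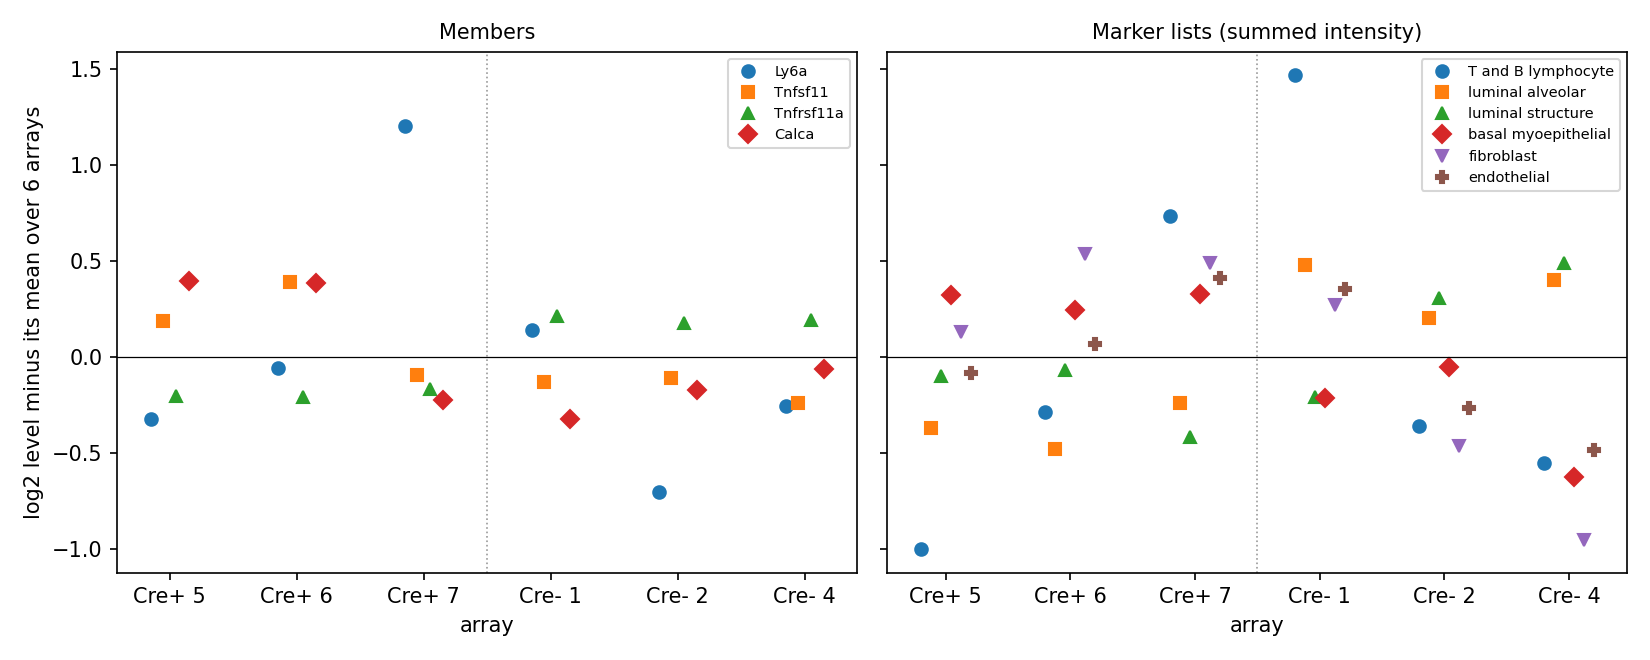
Log2 level on each array minus its mean over the 6 arrays, for 4 of the genes on the left and for the summed intensity of 6 marker lists on the right, with Cre+ arrays left of the dotted line and Cre- arrays right of it. Ly6a and the T and B lymphocyte markers are high on Cre+ 7 and Cre- 1 within their genotypes, Calca and Tnfsf11 are high on Cre+ 5 and 6, and Tnfrsf11a and the luminal alveolar markers are low on all 3 Cre+ arrays.

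Genes around the members were followed through 6 lists. Over all tested probe sets, 2.03% were called higher and 2.14% lower. Of 13 other hormone receptors and luminal regulators, all tested, 1 rose, 0 fell and 12 did not pass, and 0 rose without Cre- 2 or without Cre+ 6. The list's median change was 0.023.

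Of 15 genes reported downstream of oestrogen or progesterone, 13 were tested, 5 rose, 1 fell and 7 did not pass. Of all tested probe sets, 2.03% were called higher and 2.14% lower. The list's median change was 0.24. Ccnd1, Id4 and Xbp1 of this list were known from earlier results on these arrays to have changed, so the count is not independent evidence of its direction. Ccnd1, the gene of cyclin D1, which progesterone and RANK signalling are known to act through, rose by 1.49 (SE 0.20, limma adjusted p = 0.0134). Id4, an inhibitor of helix-loop-helix factors found mainly in basal cells, rose by 1.36 (SE 0.20), and Adamts18, a matrix protease of myoepithelial cells downstream of progesterone, rose by 0.96 (SE 0.15). Xbp1, an oestrogen-induced factor of the secretory pathway, fell by 0.52 (SE 0.085, limma adjusted p = 0.0245), a call that held in 1 of the 6 fits without a single array, that without Cre- 1.

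Adamts18 shows how these rises looked on single arrays, with 101, 87.3 and 69.9 units in Cre+ 5, 6 and 7, against 38.6, 49.8 and 43.9 units in Cre- 1, 2 and 4. The lowest Cre+ array was still above the highest Cre- array. Fgfr2 (0.53) and Myb (0.33), named after their values were seen, were the other rises. Beside these stand the basal marker sums of 4995 to 5291 units in Cre+ and 2730 to 4067 in Cre-, whose part in the rises was not tested. Leaving out Cre- 2 or Cre- 4 brought the rises in this list to 1 and 2, leaving out Cre+ 5 or 6 brought them to 0, and 3 were called with no filter on dim probe sets.

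Areg, Wnt4 and Stc2 of this list did not pass, and Greb1 lay below the filter. These genes were chosen for mention with their values known. Areg encodes amphiregulin, the EGF receptor ligand released in answer to oestrogen, and had 47.0, 52.8 and 37.4 units in Cre+ 5, 6 and 7, against 33.4, 40.3 and 41.8 units in Cre- 1, 2 and 4. As with Tnfsf11 and Calca, Cre+ 5 and 6 were the highest arrays and Cre+ 7 lay lower, and the log2 change was 0.24 (SE 0.14, limma adjusted p = 0.412). Wnt4, the Wnt ligand that progesterone induces, changed by 0.035 (SE 0.067, limma adjusted p = 0.837) at its brighter probe set and by -0.17 (SE 0.092) at the other. Stc2 and Greb1, genes induced by oestrogen, changed by 0.0012 and, below the filter, by 0.012.

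Of the partners of RANK signalling, 15 were tested, among them the Traf adaptors, the IKK kinases, the NF-κB subunits, Id2 and Rspo1. Limma called 0 in either direction, with 1 at an unadjusted p under 0.05. That gene was Tnfrsf11b, which encodes osteoprotegerin, the soluble decoy that binds RANK ligand. It was at 26.2, 27.1 and 28.6 units in Cre+ 5, 6 and 7, against 24.9, 25.3 and 22.9 units in Cre- 1, 2 and 4, with a log2 change of 0.16 (SE 0.051, limma adjusted p = 0.120). The list's median change was -0.015.

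The calcitonin family gave 5 tested genes of 8, and the calcitonin receptor gene Calcr was below the filter. Limma called 0 of the 5, with 0 at an unadjusted p under 0.05, and the smallest p belonged to Ramp2, an accessory protein of the calcitonin receptor-like receptor, at 0.18 (SE 0.14, adjusted p = 0.527). Of 7 tested genes of the EGF receptor axis, limma called 0, with 1 at an unadjusted p under 0.05. This was Erbb3, a neuregulin receptor of luminal cells, with 222, 216 and 172 units in Cre+ 5, 6 and 7, against 232, 309 and 395 units in Cre- 1, 2 and 4. Its log2 change was -0.59 (SE 0.19, adjusted p = 0.135). Without Cre- 1 it was -0.79 and passed (adjusted p = 0.0313), as it did without both Cre- 1 and Cre+ 7 (-0.67, adjusted p = 0.0265).

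Ly6a belongs to a cluster of near relatives whose probes may share targets, which was not tested. Of 6 relatives with a probe set of their own, 4 were tested and limma called 0, with 0 at an unadjusted p under 0.05. The smallest p belonged to Ly6e, at -0.11 (SE 0.067, adjusted p = 0.432, and 0.21 with arrays centred on luminal structure markers), with 2361, 2473 and 2257 units in Cre+ 5, 6 and 7, against 2497, 2499 and 2642 units in Cre- 1, 2 and 4. Unlike Ly6a, Ly6e was lowest on Cre+ 7. On Cre+ 7, Ly6i read 30.5 units, against 23.9 and 26.1 on Cre+ 5 and 6, and Ly6i is named after its values were seen.

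**Figure D4:**
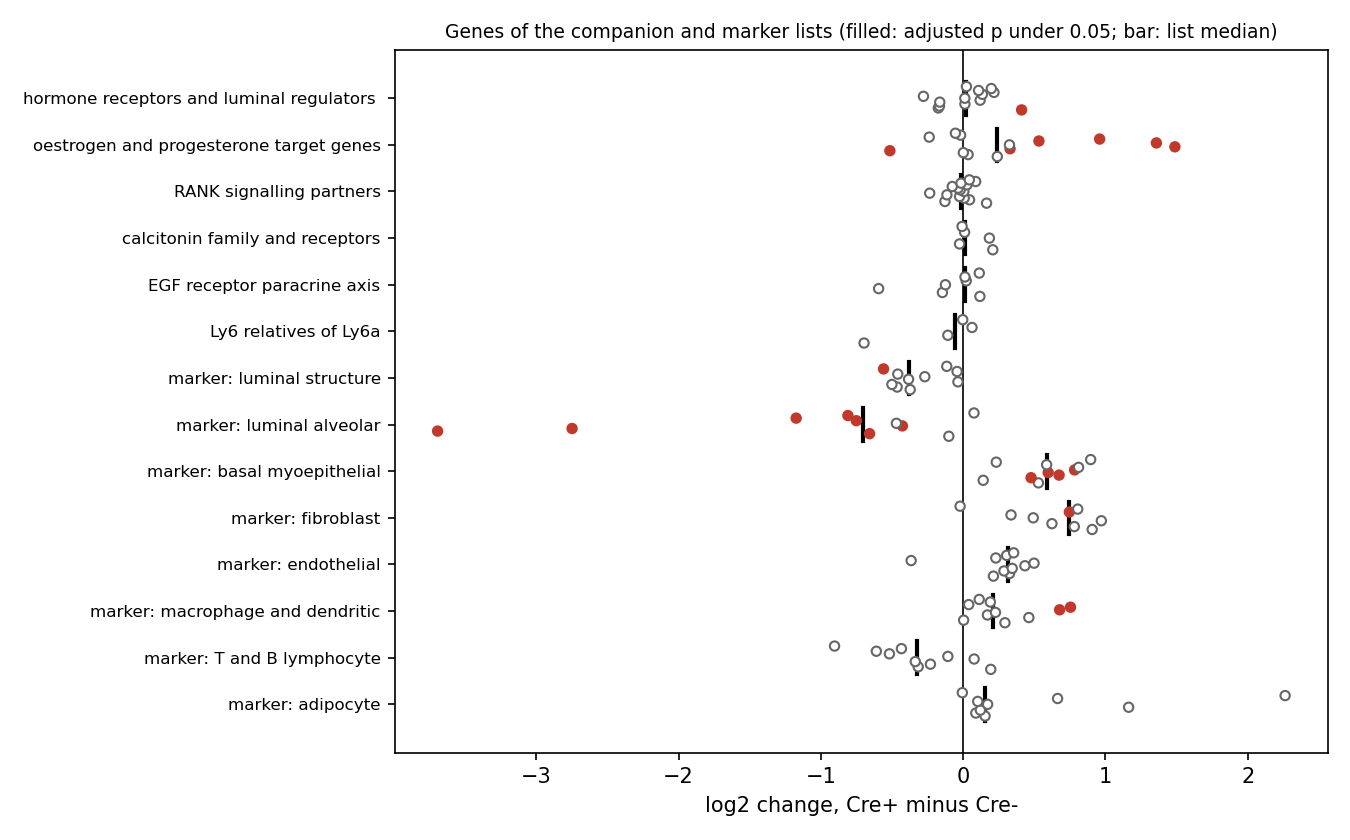
Log2 change, Cre+ minus Cre-, of each tested gene in 6 lists around the members and 8 cell type marker lists, one point a gene, filled where adjusted p was under 0.05, with the list median as a bar. The filled points right of 0 among oestrogen and progesterone targets are 5 genes up to 1.49, the RANK signalling partners cluster around -0.015, and the luminal alveolar and basal markers lie mostly on opposite sides of 0.

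The tested genes whose log2 profile over the 6 arrays came closest to that of a member were found by root mean square distance after centring each gene on its own mean. For Esr1, Ccnjl and Tbc1d19 were the second and the third nearest, at distances of 0.022 and 0.024, where Esr1 itself spanned 0.34 from its lowest to its highest array. For Pgr the 3 nearest were Tph1, the serotonin synthesis enzyme known from mammary epithelium, Wdr8 and Syt12, at 0.025, 0.026 and 0.031, where Pgr spanned 0.43. For Ly6a they were Fam111a (0.20), the interferon-induced chemokine gene Cxcl9 (0.23) and Fgl2 (0.24), where Ly6a spanned 1.91. Cxcl9 read 84.8 units on Cre+ 7, against 42.3 and 44.6 on Cre+ 5 and 6 and 29.1 to 36.8 in Cre-. With 6 arrays and 16921 probe sets, the distances were smaller for the members that varied less, and these likenesses are descriptions.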

How the data were processed

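RNA from mammary cells of 3 IRfl/fl Cre+ and 3 IRfl/fl Cre- mice was measured on 1 array each. The authors deposited RMA intensities from Expression Console over core exons, per the labels, on a linear scale from 18.7 to 10919. The sources used here do not give the software version, build or annotation. Deposited p-value and ratio columns were the authors' own, per the file headers, and are quoted as such. Their columns of group means and errors were not used. Log2 was taken here.

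The 16921 probe sets that name 1 gene and had a mean at or above the 30th percentile (22.4 units) entered limma 3.58.1 under R 4.3.3, where lmFit and eBayes (with a trend on intensity) compared Cre+ with Cre-. Tests were two-sided and p-values were adjusted by Benjamini-Hochberg over the whole set. The script was tested on simulated data. A gene with several probe sets is given by the brightest. Replicates are separate mice per the labels, and 3 a group limits precision.

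The members and lists were chosen with earlier results of these data known. Named genes are the members, Insr, up to 4 called genes of each list (otherwise that of smallest p) and the 3 genes nearest to Esr1, Pgr and Ly6a. Of the genes this rule names, 2 are not reported here. Genes outside this rule are said to have been named after their values were seen, and the same holds for Calcr. Lists were counted and given by their median, with no set test. Alternatives were other filters, an offset, other scalings, other variance settings and omitted arrays.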

Additional observations from a re-analysis of the deposited data

How the results depend on the processing

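No paired analysis was possible because the groups share no mouse number. Leaving out 1 array at a time left 0 to 1 members called higher, 0 to 0 called lower, 46 to 781 probe sets called in all (706 with all arrays), and 0 to 5 higher and 0 to 2 lower genes in the 6 lists around the members (6 and 1 with all arrays). Without Cre- 1 and Cre+ 7 together there were 1 member higher (Calca), 0 lower, 2 list genes lower and 954 probe sets called. With eBayes without a trend, 2 list genes were lower. With arrays centred on luminal structure markers, 1 member was higher (Ly6a, 0.87), 0 were lower and 0 list genes were lower. Ly6a still overlapped between genotypes, at log2 levels over the luminal mean of -0.43 to 1.38 in Cre+ and -1.12 to 0.11 in Cre-. Its SE was 0.21, against 0.39 as deposited. Of the 841 calls, 93.9% were rises, against 48.7% as deposited. The scaling adds the same amount to every change, which moved the median of all probe sets to 0.32. That scaling took Tnfrsf11a to -0.065, Esr1 to 0.37, Foxa1 to 0.38 and Ly6e to 0.21, a turned sign for Ly6e. For Esr1 single omissions gave -0.025 (without Cre- 1) to 0.11 (without Cre- 4), with the sign also turned without Cre+ 5 (-0.013). With 16 units taken off before log2, changes of dim members were larger (Pgr 0.62, Calca 0.60, Cited1 0.47, Tbx3 0.42, Foxa1 0.20) and none of these was called. Prom1 was below the filter, so its change comes from the unfiltered fit alone. The Tnfrsf11a call held in the 6 settings that changed the filter, the offset, median centring or the variance model. The arrays give no background probe reading here, so no member could be called absent, and 3 arrays a group limit what can be detected.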
